A study of Homo sapiens with 8 samples.

Results

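The insulin-like growth factor (IGF) axis was followed through 10 genes of Panc-1 cells, out of 13307 genes with a value in the deposited table: the ligand gene IGF2, the receptor genes IGF1R, IGF2R and INSR, the adaptor genes IRS1 and IRS2, and the binding protein genes IGFBP3, IGFBP4, IGFBP6 and IGFBP7. All 10 were found by name, and all passed the minimum on low values. IGF2 was chosen because it is one of the largest rises with TGFβ, taken here as the rise in siControl cells. Its responses to TGFβ are therefore given as a description. No p-value of the comparison in siControl cells is printed for any of the 10 genes. Counts of genes that met the criteria there are given, and nothing is read from them. In these data IGF2 was also higher after depletion of PHF13 (2.15-fold without TGFβ), together with IGF2R (1.63-fold) and IGFBP3 (1.94-fold), while INSR fell to 0.34 of its siControl level.

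IGF2 is a secreted growth factor. It signals through the tyrosine kinase receptor IGF1R and through the insulin receptor INSR, whose kinase activity recruits the docking proteins IRS1 and IRS2 and, through them, PI3K and AKT. IGF2R, the cation-independent mannose-6-phosphate receptor, has no kinase and carries IGF2 to lysosomes, and the secreted IGF binding proteins hold the ligand outside the cell. IGF2 is an imprinted gene that is abundant in fetal tissue and raised in many tumours.

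Panc-1 is an established human cell line from a carcinoma of the pancreatic duct. The 4 groups of cells (n = 2 libraries each) were measured by mRNA-seq of polyA RNA: cells transfected with a non-targeting siRNA (siControl), cells transfected with siRNAs against the chromatin reader PHF13 (siPHF13), and both again with 10 ng/ml TGFβ for 48 h (siControl + TGFβ and siPHF13 + TGFβ). All groups thus share the cell line and an siRNA transfection, and the TGFβ was added after it to induce epithelial-mesenchymal transition (EMT). The comparisons ask what depletion of PHF13 and exposure to TGFβ each did to these genes, and whether the response to TGFβ differed after depletion.

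The values are normalized counts, that is reads on the exons of a gene divided by a size factor of the library, and 39196214 to 46700806 reads per library stood behind them. PHF13 itself read 1804 and 1662 in siControl, 524 and 558 in siPHF13, 1586 and 1710 in siControl + TGFβ, and 513 and 529 in siPHF13 + TGFβ, so the siPHF13 libraries lay below all others. All 6 ductal markers examined (KRT7, KRT8, KRT18, KRT19, EPCAM and CDH1) had values in every library, none of them at 0 and the lowest at 78.8. Their summed level was 193827 to 204434 in siControl, 171871 to 194633 in siPHF13, 121810 to 127490 in siControl + TGFβ and 138488 to 150248 in siPHF13 + TGFβ. The sum rests mostly on keratins, and after depletion without TGFβ CDH1 fell to 0.367 (limma adjusted p = 0.0026) while EPCAM rose 1.72-fold (adjusted p = 0.00292). The siPHF13 libraries of CDH1 read 106 and 233. With TGFβ, depletion left KRT19 1.69-fold higher (limma adjusted p = 4.75e-07) and EPCAM 1.92-fold higher (adjusted p = 0.000669), both called. The other 4 ductal markers were not called there, and 8.81% of all genes were called higher. The summed level of 6 mesenchymal markers was 166096 to 168249, 166942 to 171919, 213828 to 222307 and 185479 to 200895 in the same order of groups, mostly VIM. After depletion 3 of these 6 were called lower in both settings: CDH2 (to 0.555 without and 0.562 with TGFβ), FN1 (0.562 and 0.415) and COL1A1 (0.562 and 0.303). Over all genes 10.4% were called lower without TGFβ and 11.7% with it. FN1 was low, with siPHF13 libraries at 49.7 and 92.7. VIM, PDGFRB and ACTA2 were not called in either setting (log2 fold changes -0.10 to 0.47). COL1A1 was 4.68-fold higher with TGFβ in siControl cells and 2.52-fold higher in siPHF13 cells. Of 3 leukocyte markers 1 was analysed, CD68, a lysosomal protein gene, at 7236 to 7360 in siControl, 11903 to 13047 in siPHF13, 6137 to 7666 in siControl + TGFβ and 10524 to 13400 in siPHF13 + TGFβ. The part of these shifts in the results below was not tested.

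In GRCh37, the build of the deposited files (there named hg19), IGF2 lies on the reverse strand at chr11:2150342-2179621, IGF2R on the forward strand at chr6:160390114-160534539, IGF1R on the forward strand at chr15:99191768-99507759 and INSR on the reverse strand at chr19:7112266-7294425. IRS1 (chr2:227596028-227664536) and IRS2 (chr13:110405042-110438930) are both on the reverse strand. The binding protein genes lie at chr7:45951844-45961473 (IGFBP3, reverse), chr17:38599702-38613977 (IGFBP4, forward), chr12:53491220-53496129 (IGFBP6, forward) and chr4:57896939-57976551 (IGFBP7, reverse). In GENCODE, 44.4% of the exonic bases of IGF2 are also exonic in other annotated genes, most of them in a protein-coding gene without a symbol on the same strand (37.9%). The others are the readthrough gene INS-IGF2 (20.4%) and a long non-coding RNA gene (5.22%) on the same strand and IGF2-AS (4.66%) on the opposite strand. Reads in these stretches cannot be told apart where the counting does not use strand or counts the genes together, and the strand setting is not given in the sources used here. For IGFBP7, 18.3% of exonic bases are shared. POLR2B, an RNA polymerase II subunit gene on the opposite strand, accounts for 13.5%, and IGFBP7-AS1 for 4.87%. For 6 of the other 8 genes no exonic base is shared, and for IGF2R and IRS2 the shares are 2.53% and 1.41%.

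The 250 bases before the RefSeq start of transcription are shown for the 3 genes called changed after depletion without TGFβ that have an entry in the RefSeq promoter table (8 of the 10 genes have one; IGF2 and IGFBP7 do not). They are written 5′ to 3′ in the direction of the gene, in the build GRCh38.p14, which differs from the build of the files: chr6:159968832-159969081 on the forward strand for IGF2R, chr7:45921273-45921522 on the reverse strand for IGFBP3, and chr19:7294415-7294664 on the reverse strand for INSR. Capitals mark matches, on either strand, to CACGTG (the E-box of MYC and related factors), CAGGTG (the E-box read by ZEB and SNAI factors), CAGAC (a SMAD box) and GTAAACA (a FOXO site). No match overlapped another.
IGF2R: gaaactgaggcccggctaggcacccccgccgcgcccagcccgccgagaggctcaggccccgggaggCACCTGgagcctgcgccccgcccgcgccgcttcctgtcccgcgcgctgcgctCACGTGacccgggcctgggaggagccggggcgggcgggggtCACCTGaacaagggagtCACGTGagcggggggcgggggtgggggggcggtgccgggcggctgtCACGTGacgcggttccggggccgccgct
IGFBP3: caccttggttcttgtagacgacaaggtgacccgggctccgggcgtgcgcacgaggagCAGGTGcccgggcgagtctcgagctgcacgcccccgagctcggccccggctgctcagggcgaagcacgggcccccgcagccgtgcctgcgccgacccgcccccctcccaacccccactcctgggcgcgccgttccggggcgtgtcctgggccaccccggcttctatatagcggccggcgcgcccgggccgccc
INSR: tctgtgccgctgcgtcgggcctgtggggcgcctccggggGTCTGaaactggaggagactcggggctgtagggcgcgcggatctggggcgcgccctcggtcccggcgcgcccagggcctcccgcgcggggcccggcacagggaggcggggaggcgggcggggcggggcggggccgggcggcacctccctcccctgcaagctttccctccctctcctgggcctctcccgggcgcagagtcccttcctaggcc
The IGF2R promoter holds 3 matches to CACGTG, with first bases at positions -132, -74 and -28 from the start, and 2 to CAGGTG, at -184 and -91. CACGTG stands in 6.34% and CAGGTG in 17.5% of all 35116 promoter windows of that length. IGFBP3 holds 1 match to CAGGTG and INSR 1 to CAGAC, a short motif found in 38% of all windows. Of the other 5 windows, that of IGFBP6 holds CAGGTG and GTAAACA (2.98% of all windows), and those of IGF1R, IRS1, IRS2 and IGFBP4 hold no match. GC content was 79.2% for IGF2R, 76% for IGFBP3 and 78.4% for INSR, against a median of 58% over all windows. A match describes letters in the sequence and was not examined as a binding site.

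IGF2 itself was measured at 2081 and 1944 normalized counts in siControl, 4311 and 4352 in siPHF13, 16709 and 12642 in siControl + TGFβ, and 24170 and 17649 in siPHF13 + TGFβ. The 4 groups did not overlap, and their means rose in that order: 2013 ± 96.6, 4332 ± 29.3, 14676 ± 2876 and 20909 ± 4611 (SD, n = 2). The spread between replicates was small without TGFβ (1.07-fold and 1.01-fold) and wider with it (1.32-fold and 1.37-fold). The highest siControl + TGFβ library and the lowest siPHF13 + TGFβ library, the nearest neighbours in that order, were 16709 and 17649.

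**Figure D1:**
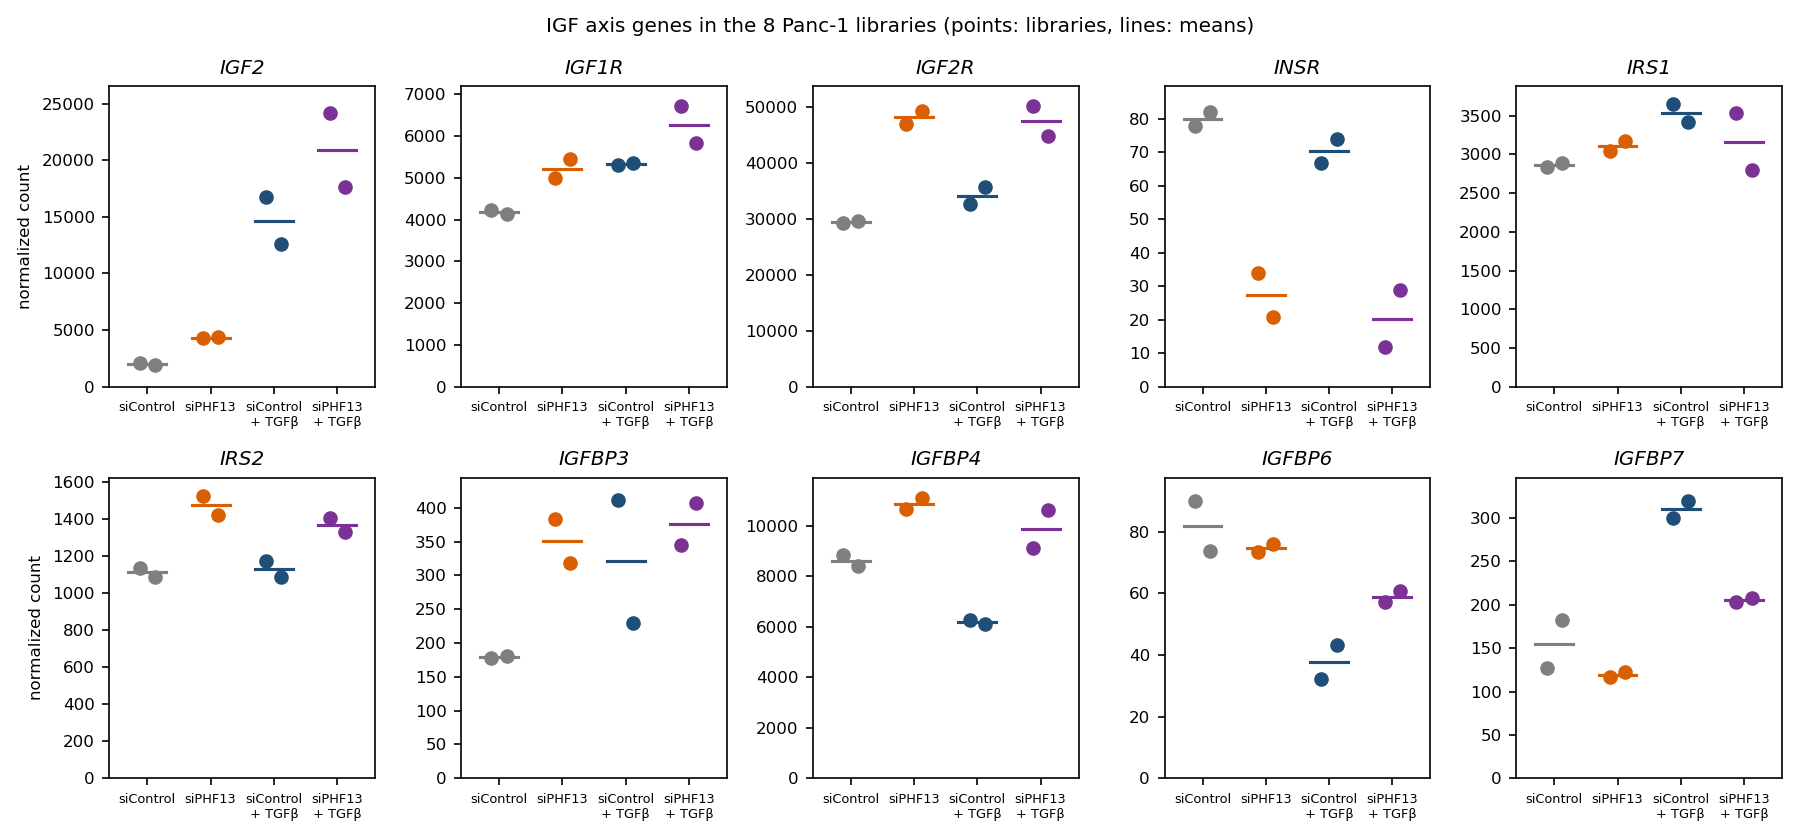
Normalized counts (vertical axes, each from 0) of the 10 IGF axis genes in siControl, siPHF13, siControl + TGFβ and siPHF13 + TGFβ cells. Points are the 2 libraries of a group and lines their means. IGF2 rises from about 2013 in siControl to 20909 in siPHF13 + TGFβ, INSR is below 34 in the 4 siPHF13 libraries and at 66.8 or more in the others, and IGFBP3 has 1 high and 1 low library in siControl + TGFβ.

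Without TGFβ, IGF2 was 2.15-fold higher in siPHF13 than in siControl (log2 fold change 1.11 ± 0.13 SE, limma adjusted p = 1.28e-05). A gene was called changed where its adjusted p over all 13307 genes was under 0.05 and its log2 fold change over 0.58 in size. With TGFβ the difference was 1.42-fold (log2 fold change 0.51 ± 0.13 SE, limma adjusted p = 0.00519), which passed the p threshold and not the fold threshold. It was 0.71 without replicate 1 of siControl + TGFβ and 0.73 without replicate 2 of siPHF13 + TGFβ, and then called. It was 0.31 (adjusted p = 0.095) without replicate 2 of siControl + TGFβ and 0.28 (adjusted p = 0.042) without replicate 1 of siPHF13 + TGFβ. The siControl libraries used for the first of these comparisons and the siControl + TGFβ libraries used for the second also stood in the contrast on which IGF2 was chosen. Such a choice favours low siControl and high siControl + TGFβ values. It can therefore raise the difference without TGFβ and lower the one with it, by an amount not known here. The labels do not say whether the 2 libraries of a group came from separate cultures, so that all p-values measure the spread between libraries, which may be technical.

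In siControl cells TGFβ raised the measured level of IGF2 7.22-fold (log2 fold change 2.85), the contrast it was chosen on. That was the 17th largest rise of all 13307 genes, between neighbours at 3.09 and 2.81 on the log2 scale, and number 3 among the 11201 genes whose mean over the libraries reached 100. In siPHF13 cells IGF2 rose 4.77-fold with TGFβ (log2 fold change 2.25 ± 0.13 SE). This is also a description, because the rule of choice names a TGFβ rise without naming the cells. The response in siPHF13 cells was thus 0.60 lower on the log2 scale, from a starting level 2.15-fold higher, a difference not tested here because it contains the contrast of the choice. In bulk RNA, more cells with IGF2 transcripts and more transcripts per cell cannot be told apart, and the same holds for the other genes.

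Over the 8 libraries, the 5 genes with the values most like those of IGF2 (Pearson r of log2(normalized count + 1), among 11200 other genes whose mean reached 100) were HTR1D, a serotonin receptor gene (r = 0.991), BPGM, the gene of bisphosphoglycerate mutase (0.987), CNNM4, a metal transporter gene (0.986), NKAIN4 (0.984), whose product interacts with the sodium-potassium pump, and SLC29A1, an equilibrative nucleoside transporter gene (0.981). The 8 points share 4 groups and their size factors, so that r is a description of the pattern. NKAIN4 read 271 and 312 in siControl, 567 and 594 in siPHF13, 1078 and 1028 in siControl + TGFβ, and 1435 and 1432 in siPHF13 + TGFβ. Like IGF2 it kept the 4 groups apart and in the same order. Its log2 fold change after depletion was 0.99 without and 0.45 with TGFβ. HTR1D, BPGM, CNNM4 and SLC29A1 did not keep the 4 groups apart, as their depleted and control libraries overlapped with TGFβ. Their log2 fold changes after depletion were 0.34 to 0.57 without TGFβ, under the fold threshold, and 0.04 to 0.14 with it. All 5 genes were picked for their correlation with IGF2, so a shared order is partly set by that choice.

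Of the receptors, IGF2R rose and INSR fell on depletion. IGF2R read 29184 and 29603 in siControl, 46908 and 49224 in siPHF13, 32536 and 35645 in siControl + TGFβ, and 50071 and 44762 in siPHF13 + TGFβ, so all 4 siPHF13 libraries lay above all 4 others. It was 1.63-fold higher in siPHF13 than in siControl (log2 fold change 0.71 ± 0.07 SE, limma adjusted p = 2.2e-06). With TGFβ it was 1.39-fold higher (log2 fold change 0.48, adjusted p = 6.98e-05), under the fold threshold. TGFβ itself left IGF2R at 0.985 of its level in siPHF13 cells (95% confidence interval 0.889 to 1.09, adjusted p = 0.939), and the fold in siControl cells was 1.16.

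INSR was the least abundant of the 10 genes per kb of transcript. It read 77.8 and 82 in siControl, 66.8 and 74.1 in siControl + TGFβ, 33.8 and 20.7 in siPHF13, and 11.9 and 28.9 in siPHF13 + TGFβ, on 11 to 91 reads per library. The 4 siPHF13 libraries were all below the 4 others, with replicates up to 2.43-fold apart. INSR fell to 0.34 of its level without TGFβ (log2 fold change -1.56 ± 0.42 SE, limma adjusted p = 0.0074) and to 0.275 with TGFβ (log2 fold change -1.86 ± 0.42 SE, limma adjusted p = 0.00212). Without TGFβ the call was lost when replicate 2 of siControl (log2 fold change -1.52, adjusted p = 0.0504) or replicate 2 of siPHF13 (-1.22, adjusted p = 0.0693) was left out.

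IGF1R, the main signalling receptor of the axis, moved less. It read 4223 and 4133 in siControl, 4981 and 5457 in siPHF13, 5300 and 5341 in siControl + TGFβ, and 6720 and 5822 in siPHF13 + TGFβ. The siPHF13 libraries were above their siControl counterparts in both settings, by 1.25-fold without TGFβ (adjusted p = 0.00304) and 1.18-fold with it (adjusted p = 0.0183), under the fold threshold in both. With TGFβ it was 1.27-fold higher in siControl cells and 1.2-fold higher in siPHF13 cells (adjusted p = 0.085).

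Per kb of canonical transcript, the scale on which genes can be set beside each other, IGF2 stood at 361 normalized counts per kb in siControl, near IGF1R (341) and below IGF2R (2090). In siControl + TGFβ it reached 2630 per kb, against 2424 for IGF2R and 435 for IGF1R, and in siPHF13 + TGFβ 3747 per kb against 3372 and 513. The 2 siControl + TGFβ libraries of IGF2 (2994 and 2266) enclosed those of IGF2R (2314 and 2535), and the 2 siPHF13 + TGFβ libraries of IGF2 (4331 and 3163) enclosed those of IGF2R (3561 and 3183), so that the 2 genes were not apart beyond their spread in either group with TGFβ. INSR, at 8.44 per kb in siControl and 2.88 in siPHF13, was the lowest of the 3 receptors in all groups. Which transcript of each gene the cells used was not examined, and another length would move these levels. The level of IGF2 also depends on how reads in its shared exonic bases were assigned, which is not known. Those bases are 44.4% of its exonic bases, against 2.53% for IGF2R and 0 for IGF1R.

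**Figure D2:**
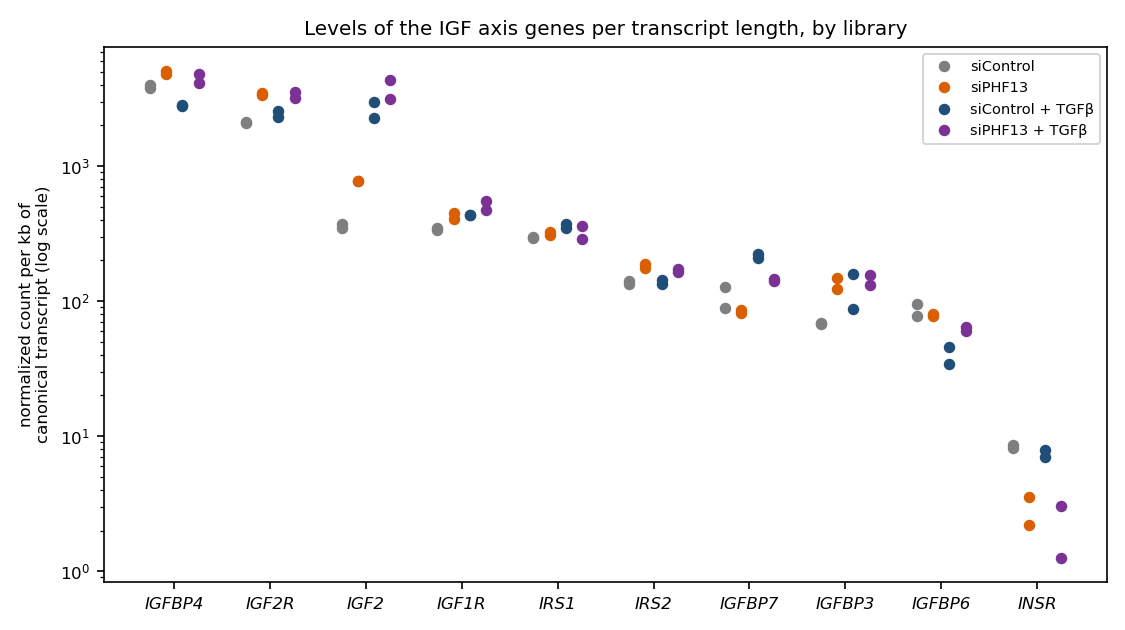
Normalized counts per kb of canonical transcript (vertical axis, log scale) of the 10 genes, ordered by their mean over all libraries. Each point is a library, coloured by group. IGFBP4, IGF2R and, with TGFβ, IGF2 lie above 2000 per kb, and INSR lies below 9 in all 8 libraries.

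The adaptors changed little. IRS2 read 1138 and 1089 in siControl, 1526 and 1424 in siPHF13, 1175 and 1087 in siControl + TGFβ, and 1409 and 1332 in siPHF13 + TGFβ. Its siPHF13 libraries lay above the siControl libraries in both settings, by 1.32-fold (adjusted p = 0.00148) and 1.21-fold (adjusted p = 0.0149), under the fold threshold. IRS1 ranged from 2792 to 3654 over the 8 libraries. Its fold on depletion was 1.08 without TGFβ (95% confidence interval 0.943 to 1.24, adjusted p = 0.331) and 0.889 with it (0.774 to 1.02, adjusted p = 0.144).

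Among the binding proteins, IGFBP3 and IGFBP4 were higher after depletion, each in 1 setting by the full criteria. IGFBP4, the most abundant of the 10 genes per kb (3906 in siControl), read 8839 and 8385 in siControl, 10636 and 11085 in siPHF13, 6278 and 6108 in siControl + TGFβ, and 9130 and 10626 in siPHF13 + TGFβ. The siControl + TGFβ libraries were the lowest, and the siPHF13 libraries were above their counterparts in both settings. IGFBP4 was 1.59-fold higher after depletion with TGFβ (log2 fold change 0.67 ± 0.07 SE, limma adjusted p = 4.82e-06) and 1.26-fold higher without it (log2 fold change 0.33, adjusted p = 0.0017, under the fold threshold). Without replicate 2 of siPHF13 + TGFβ the first of these was 0.56, also under that threshold. TGFβ left IGFBP4 at 0.719 of its level in siControl cells and at 0.907 in siPHF13 cells (adjusted p = 0.419).

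IGFBP3, the main carrier of IGFs in serum, read 177 and 181 in siControl, 383 and 318 in siPHF13, 412 and 229 in siControl + TGFβ, and 345 and 407 in siPHF13 + TGFβ. The siControl libraries were below all others, and those of siControl + TGFβ were 1.8-fold apart. It was 1.94-fold higher in siPHF13 than in siControl (log2 fold change 0.96 ± 0.22 SE, limma adjusted p = 0.00272). With TGFβ the groups overlapped (log2 fold change 0.29, adjusted p = 0.3), and the value rested on single libraries: 0.71 (adjusted p = 0.0111) without replicate 1 of siControl + TGFβ and -0.13 (adjusted p = 0.599) without replicate 2. With TGFβ it was 1.71-fold higher in siControl cells, a value that fell to 0.35 on the log2 scale without the high library, and 1.08-fold in siPHF13 cells (95% confidence interval 0.775 to 1.49).

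IGFBP7, a binding protein with low affinity for IGFs, read 127 and 182 in siControl, 116 and 122 in siPHF13, 300 and 320 in siControl + TGFβ, and 203 and 208 in siPHF13 + TGFβ. It was higher with TGFβ in both settings, 2.03-fold in siControl cells and 1.72-fold in siPHF13 cells (log2 fold change 0.78 ± 0.19 SE, limma adjusted p = 0.0407). After depletion with TGFβ it fell to 0.664 (log2 fold change -0.59 ± 0.19 SE, limma adjusted p = 0.0189), and without TGFβ its fold was 0.786 (adjusted p = 0.149). These calls were close to the thresholds. The TGFβ call in siPHF13 cells was lost when any library of siPHF13, siControl + TGFβ or siPHF13 + TGFβ was left out (log2 fold changes 0.74 to 0.81, adjusted p 0.0681 to 0.191), and in a fit of the compared libraries only (adjusted p = 0.0702). The depletion call with TGFβ was lost without either siControl + TGFβ library (-0.64, adjusted p = 0.0545, and -0.54, adjusted p = 0.0956) or replicate 1 of siPHF13 + TGFβ (-0.57, adjusted p = 0.0582), and without replicate 1 of siControl IGFBP7 was called lower after depletion without TGFβ too (-0.61, adjusted p = 0.0404). POLR2B, which shares exonic bases with it and was looked up after the IGFBP7 values had been seen, ranged from 5825 to 6412 over the 8 libraries, with log2 fold changes of -0.07 to -0.01 in the 4 comparisons of groups.

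IGFBP6, which binds IGF2 in preference to IGF1, read 90.1 and 73.9 in siControl, 73.6 and 76 in siPHF13, 32.3 and 43.2 in siControl + TGFβ, and 57.2 and 60.6 in siPHF13 + TGFβ. The siControl + TGFβ libraries were the lowest of all. With TGFβ it stood at 0.465 of its siControl level in siControl cells and at 0.791 in siPHF13 cells (95% confidence interval 0.519 to 1.21, adjusted p = 0.685). Its fold on depletion was 0.917 without TGFβ (adjusted p = 0.744) and 1.56 with it (95% confidence interval 1.02 to 2.38, adjusted p = 0.074).

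Taking the 10 genes as a list, 4 were called after depletion without TGFβ (3 higher, IGF2, IGF2R and IGFBP3, and 1 lower, INSR), where 18.4% of all genes tested were called, 7.95% higher and 10.4% lower. With TGFβ 3 were called (IGFBP4 higher, INSR and IGFBP7 lower), against 20.5% of all genes, 8.81% higher and 11.7% lower. The p threshold alone was passed by 7 of 10 in each setting, against 47.4% and 50.4% of all genes. The median log2 fold change of the 10 genes was 0.33 without and 0.28 with TGFβ, and that of all genes 0.00 in both. The 10 genes were chosen with earlier results of these data known, which limits what these counts can show.

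In the response of siPHF13 cells to TGFβ, 2 of the 10 genes were called, IGF2 and IGFBP7, both higher, where 1.35% of all genes were called and 1.13% were called higher. IGF2 counts among them although it was chosen for its rise with TGFβ. In siControl cells 4 met the same criteria, 3 higher (IGF2, IGFBP3 and IGFBP7) and 1 lower (IGFBP6), where 4.79% of all genes did, 3.27% higher and 1.52% lower, and nothing is read from this count because IGF2 was chosen there. Leaving out replicate 1 or 2 of siControl, or replicate 1 of siControl + TGFβ, lowered it to 2. The response differed between siPHF13 and siControl cells for 0 of the 9 genes other than IGF2 by limma (adjusted p 0.238 to 0.926), where 0.308% of all genes passed. At an unadjusted p under 0.05 there were 4 (IGF2R, IRS1, IGFBP3 and IGFBP4), and edgeR and DESeq2 also called 0, with 3 at an unadjusted p under 0.05 each. The share of all genes at that unadjusted threshold is not given here, so nothing is read from the 4 or the 3.

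**Figure D3:**
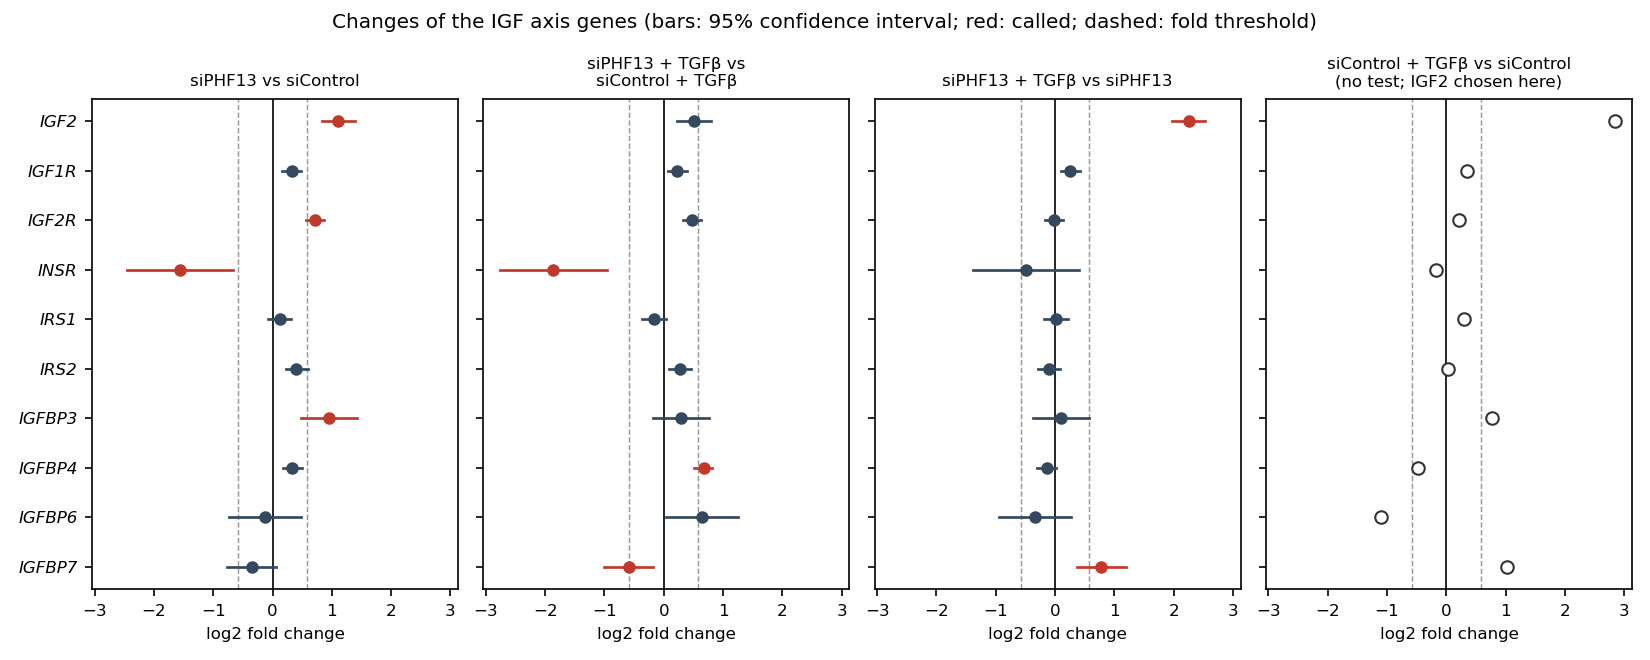
Log2 fold changes (horizontal axes) of the 10 genes in 4 comparisons. Points are estimates, bars 95% confidence intervals, red marks genes called changed, and dashed lines the fold threshold of 0.58. Depletion moves IGF2, IGF2R and IGFBP3 up and INSR down without TGFβ, and the right panel, with open points, has no bars because IGF2 was chosen on that comparison.

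The wider pathway was described with lists of 75 genes by role, of which 62 were analysed here, the 10 genes above among them. After depletion, 9 of the 62 were higher and 7 lower without TGFβ, and 6 were higher and 9 lower with it. Over all genes tested 7.95% were higher and 10.4% lower without TGFβ, and 8.81% and 11.7% with it. The lower calls and those higher with TGFβ were near these shares. The 9 higher without TGFβ include IGF2, IGF2R and IGFBP3. The lists were chosen with earlier results of these data known, so nothing is read from that count. Their median log2 fold changes were 0.04 and 0.01, next to 0.00 for all genes. In siPHF13 cells 3 were higher with TGFβ, IGF2, IGFBP7 and PIK3CD, where 1.13% of all genes were. This count too includes IGF2, chosen for its rise with TGFβ. IGF2 was the only ligand analysed, since IGF1 and INS were not analysed here, and neither were H19 and the 4 other genes listed for the IGF2 locus.

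Of the 4 analysed proteases of binding proteins and their inhibitors, 2 were called after depletion without TGFβ, both higher, where 7.95% of all genes were called higher. They were PAPPA, a protease that cleaves IGFBP4 (1.96-fold, adjusted p = 0.00463), and STC1, a stanniocalcin that inhibits PAPPA (1.97-fold, adjusted p = 2.49e-05). With TGFβ STC1 alone of the 4 was called (1.96-fold, adjusted p = 2.24e-05), where 8.81% of all genes were called higher. PAPPA read 46.5 and 56.8 in siControl, 91.5 and 113 in siPHF13, 143 and 151 in siControl + TGFβ, and 156 and 112 in siPHF13 + TGFβ, so that the depleted and control libraries overlapped with TGFβ. HTRA1, a secreted serine protease, was 1.66-fold higher with TGFβ in siControl cells and 1.33-fold higher in siPHF13 cells (adjusted p = 0.0105, under the fold threshold). IGFBPL1, an IGF binding protein-like gene, was 3.46-fold higher after depletion without TGFβ (adjusted p = 0.000475) and 2.57-fold with it (adjusted p = 0.00315), from 30.2 to 56.6 normalized counts in the control libraries.

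The 3 genes of the IGF2 mRNA-binding proteins, IGF2BP1 to IGF2BP3, which are fetal RNA-binding proteins, stayed under the fold threshold in all 4 comparisons of groups, with log2 fold changes from -0.49 to 0.47. IGF2BP3 passed the p threshold after depletion without TGFβ (-0.24, adjusted p = 0.0315) and with it (-0.49, adjusted p = 0.000267), and IGF2BP1 with TGFβ (-0.37, adjusted p = 0.001). Of 6 DNA-binding regulators described for IGF2, 1 was called after depletion. That is near the share of all genes called, 18.4% without TGFβ and 20.5% with it. The gene was ZBED6, a zinc finger repressor of IGF2, at 0.658 of its control level without TGFβ (adjusted p = 0.00164) and 0.545 with it (adjusted p = 7.83e-05). The first value fell under the fold threshold without replicate 1 of siControl (log2 fold change -0.58) or replicate 1 of siPHF13 (-0.57). HMGA2, a chromatin architectural factor, was 1.57-fold higher with TGFβ in siControl cells and 1.27-fold in siPHF13 cells (adjusted p = 0.00297, under the fold threshold).

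Below the receptors, the adaptor SH2B1 was higher after depletion, 1.79-fold without TGFβ (adjusted p = 3.36e-06) and 1.73-fold with it (adjusted p = 5.41e-06). It was the only 1 of 7 adaptors analysed to be called, near the share of all genes called (18.4% without TGFβ and 20.5% with it). Of 17 genes of the PI3K and AKT branch, 2 fell on depletion both without and with TGFβ, close to the share of all genes called lower (10.4% and 11.7%). PIK3R3, a regulatory PI3K subunit gene, fell to 0.54 in both settings (adjusted p = 4.63e-07 and 3.98e-07). PIK3CD, the gene of the p110 delta catalytic subunit, fell to 0.598 (adjusted p = 3.82e-05) and 0.484 (adjusted p = 1.5e-06). It read 1703 and 1691 in siControl, 1133 and 910 in siPHF13, 3231 and 3441 in siControl + TGFβ, and 1695 and 1534 in siPHF13 + TGFβ, so that its TGFβ-treated siPHF13 libraries were at about the level of untreated siControl. In siPHF13 cells it rose 1.59-fold with TGFβ (adjusted p = 0.00134), a call lost without replicate 2 of siPHF13 (log2 fold change 0.51).

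The FOXO factors, which AKT keeps out of the nucleus, moved in both directions on depletion. FOXO1 fell to 0.522 without TGFβ (adjusted p = 0.0094) and 0.411 with it (adjusted p = 0.00108), FOXO3 to 0.705 (adjusted p = 1.98e-05, under the fold threshold) and 0.626 (adjusted p = 1.23e-06), and FOXO4 rose 2.26-fold (adjusted p = 0.0219) and 2.12-fold (adjusted p = 0.0309). FOXO4 was measured at 19 to 73 normalized counts in the control libraries. Its call without TGFβ was lost when replicate 1 of siControl (log2 fold change 0.78, adjusted p = 0.189) or either siPHF13 library (1.31 and 1.04, adjusted p = 0.0513 and 0.115) was left out. Its call with TGFβ was lost without replicate 1 of siControl + TGFβ (0.55, adjusted p = 0.295) or either siPHF13 + TGFβ library (0.98 and 1.18, adjusted p = 0.11 and 0.0578). That of FOXO1 without TGFβ was lost without replicate 2 of siControl (-0.85, adjusted p = 0.0679) or replicate 1 of siPHF13 (-0.48, adjusted p = 0.139). Of 11 negative regulators of the receptors and adaptors, 3 were called in each depletion comparison, where 18.4% of all genes without TGFβ and 20.5% with it were called. PTPRF, a receptor tyrosine phosphatase gene, rose 1.88-fold and 1.62-fold (adjusted p = 3.82e-07 and 3.8e-06), and the second value fell to 0.57 on the log2 scale, under the threshold, without replicate 1 of siPHF13 + TGFβ. SOCS1, an inhibitor of cytokine and insulin signalling, fell to 0.477 and 0.482 (adjusted p = 0.00081 and 0.000811), and TRIB3, a pseudokinase that binds AKT, to 0.549 and 0.474 (adjusted p = 4.47e-06 and 5.37e-07). GRB10, an imprinted adaptor that restrains both IGF1R and INSR, was 1.57-fold higher with TGFβ in siControl cells and 1.17-fold in siPHF13 cells (adjusted p = 0.0997). After depletion without TGFβ it was 1.4-fold higher (adjusted p = 6.03e-05), under the fold threshold.

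**Figure D4:**
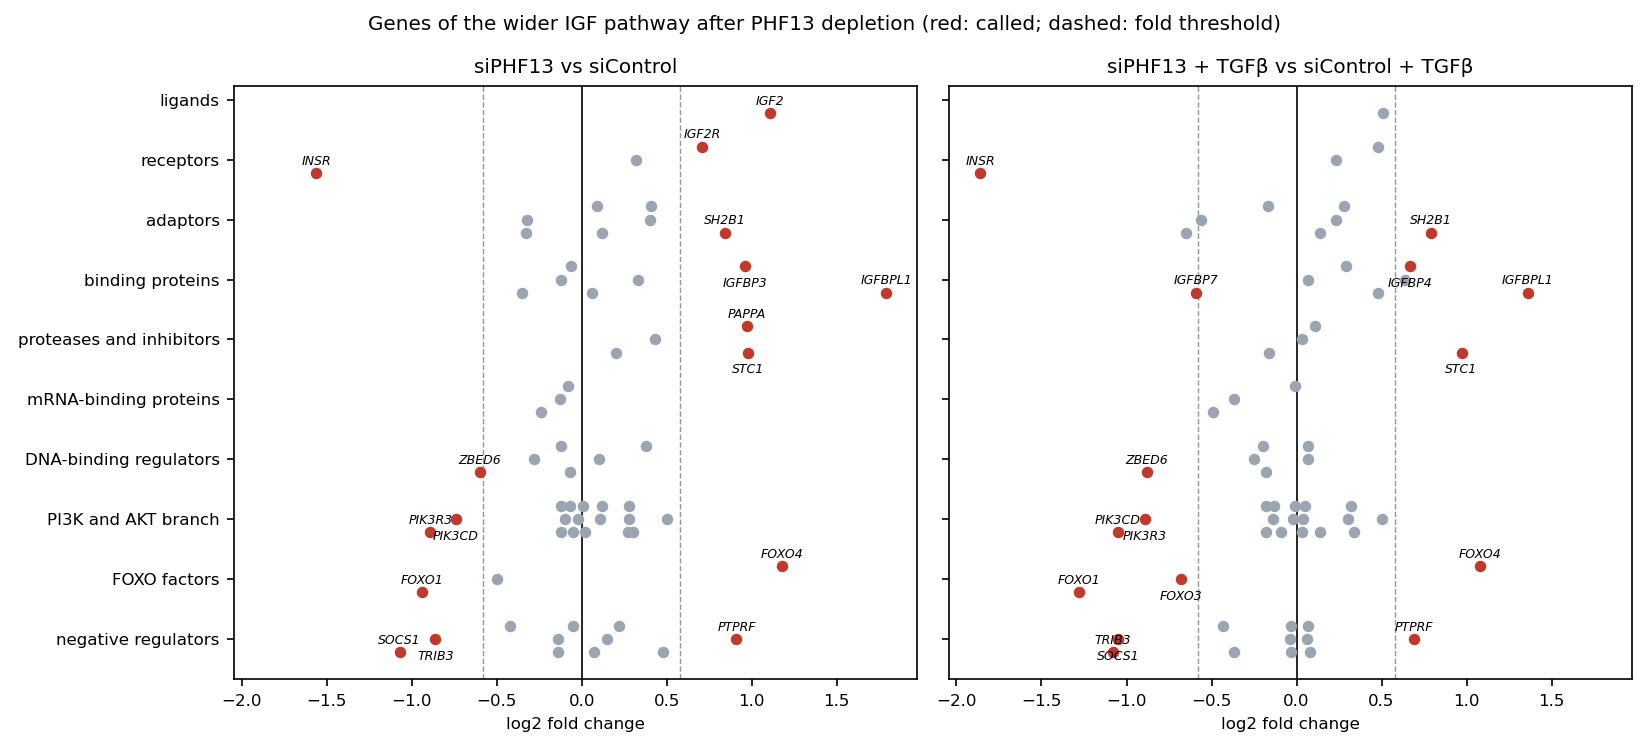
Log2 fold changes (horizontal axes) of the analysed pathway genes after depletion without TGFβ (left) and with it (right), in rows by role. Each point is a gene, red points with names were called changed, and dashed lines mark the fold threshold of 0.58. Calls lie on both sides of 0, 9 higher and 7 lower on the left and 6 higher and 9 lower on the right.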

How the data were processed

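Total RNA of 8 Panc-1 libraries was sequenced as paired-end mRNA-seq. Reads were trimmed by the authors with Trim Galore 0.4.1, mapped them with STAR 2.7.0 to hg19 and counted them on exons with HTSeq 0.12.4 (submitters' processing notes). The deposited signal is the gene count divided by a DESeq2 size factor. All values were whole multiples of 1 read's worth within 0.001 (100% in each library), which gave 39196214 to 46700806 reads. Reads carry no molecular identifiers, and no counting intervals are given. The 3 tables of the authors' comparisons hold fold changes and p-values and were not used.

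The 5 comparisons came from one limma 3.58.1 fit (R 4.3.3, trended prior variance) of log2(value + 1) over all 8 libraries, without a replicate block, with Benjamini-Hochberg adjustment over 13307 genes. A minimum of 10 in at least 2 libraries removed 0 genes. Folds are on that scale and understate changes of low genes. Members and lists were chosen with earlier results of these data known. A listed gene is not reported here. The rule for named genes took all members, pathway list genes called in a comparison of 2 groups, the 5 genes most correlated with IGF2, and PHF13. IGF2BP1 to IGF2BP3, POLR2B and the named markers fall outside it and were named after their values had been seen. Alternatives were a pseudocount of 5, no minimum, TMM rescaling, only the compared libraries, a replicate block, each library left out, no fold threshold, and edgeR 4.0.16 and DESeq2 1.42.0 on recovered reads. The procedure was tested on simulated data. Positions and exon overlaps came from GENCODE lifted to GRCh37, promoters from RefSeq.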

Additional observations from a re-analysis of the deposited data

How the results depend on the processing

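Of 740 recomputed log2 fold changes of the 10 genes, 704 kept their direction and their side of the thresholds or moved by less than the spread between libraries, 19 were no longer called, 4 were newly called and 13 values below the thresholds or without a test moved by more than that spread. With a pseudocount of 5, no minimum, TMM rescaling, a replicate block, edgeR or DESeq2, the calls were the same 4, 3, 4 and 2 of the 10 genes, and 0 of the 9 genes other than IGF2, as in the report (in order, depletion without and with TGFβ, TGFβ in siControl and in siPHF13 cells, and the difference in response). Without a fold threshold they numbered 7, 7, 7 and 2, and 0. With only the compared libraries, 1 gene in place of 2 was called for TGFβ in siPHF13 cells, because IGFBP7 was not (this setting could not be fitted for the difference in response, which needs all groups). With 1 library left out at a time, the counts ran from 3 to 5 and from 2 to 4 for depletion without and with TGFβ, from 2 to 4 for TGFβ in siControl cells, from 1 to 2 for TGFβ in siPHF13 cells, and stayed at 0 of the 9 genes for the difference in response. The log2 fold change of IGF2 then ran from 0.28 to 0.73 for depletion with TGFβ, from 2.65 to 3.05 for TGFβ in siControl cells and from -0.83 to -0.37 for the difference in response. The cause was not tested.

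Over all genes the replicate numbers gave no sign of pairing: deviations of same-numbered libraries from their group means correlated at -0.0893 to 0.05 between groups. With 2 libraries per group this cannot show that the libraries were unpaired. For IGF2, replicate 1 was the higher library in both groups with TGFβ (16709 over 12642 and 24170 over 17649). Leaving out 1 of these libraries breaks that match. With the replicate block, the log2 fold change of IGF2 was 1.11 and 0.51 for depletion, 2.85 and 2.25 for TGFβ, and -0.60 for the difference. Depth limits INSR most, at 11 to 91 reads per library.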
